A study of Homo sapiens with 12 samples.

Results

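The human mitochondrial genome carries 37 genes, and all of them were listed among the 59172 features measured by RNA-seq in HCT-116, an established line of human colorectal carcinoma cells. They were taken as every feature placed on chromosome MT: 13 mRNA genes for subunits of the respiratory chain, 2 rRNA genes of the mitochondrial ribosome and 22 tRNA genes. The study bears on how chemotherapy acts on the cGAS-STING pathway, which senses DNA in the cytosol. It holds 12 libraries in 4 groups of 3: untreated wild-type cells, wild-type cells given CPT-11 for 24 h, wild-type cells pretreated with lovastatin for 4 h and then given CPT-11 for 24 h, and cells with SHP2 silenced by a short hairpin RNA (shSHP2) and given CPT-11 for 24 h. CPT-11 (irinotecan) is a topoisomerase I poison, and lovastatin blocks HMG-CoA reductase. No group received lovastatin or the hairpin without CPT-11, and no group with a control hairpin was analysed here. The treatment label of the shSHP2 samples also names lovastatin, whereas their titles and the protocol do not, and they were grouped by title.

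Mitochondrial DNA is transcribed by the polymerase POLRMT with the factor TFAM into long RNAs that span most of each strand. The tRNAs lie between the mRNAs and rRNAs like punctuation, and their excision by RNase P and ELAC2 releases the other RNAs. One strand gives both rRNAs, most tRNAs and every mRNA except MT-ND6, which lies on the other strand together with several tRNAs. After excision each RNA has its own stability, so genes of one primary transcript can reach different levels.

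Mature tRNAs are shorter than the fragments an RNA-seq library of this kind usually keeps, and they carry modified bases. Reads on these genes may therefore come from unprocessed or partly processed RNA as much as from mature tRNA, and a tRNA value here is an unreliable measure of tRNA abundance. A single read in a tRNA gene was worth 0.790 to 1.17 FPKM (reads scaled to gene length and to library size by the authors), against 0.0327 to 0.334 FPKM in an mRNA gene. The sequences of 6 tRNA genes and of MT-ATP8 are shown because the results turn on them. They come from the GENCODE release 29 transcripts on GRCh38, are given 5′ to 3′ on the strand of the gene, and show how little sequence a read can match. MT-TH (MT 12138 to 12206, plus strand) and MT-TY (MT 5826 to 5891, minus strand) had values that spread widely over the libraries. MT-TN (MT 5657 to 5729, minus strand), MT-TC (MT 5761 to 5826, minus strand) and MT-TP (MT 15956 to 16023, minus strand) held 84.3% to 93.0% of all mitochondrial tRNA reads of a library. MT-TG (MT 9991 to 10058, plus strand) ends at the base before MT-ND3 begins. Capitals mark the anticodon in the tRNA genes. In MT-ATP8 (MT 8366 to 8572, plus strand) they mark the last 46 of its 207 bases, which MT-ATP6 also covers in another reading frame.
MT-TH: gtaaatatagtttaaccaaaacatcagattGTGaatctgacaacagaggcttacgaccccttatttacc
MT-TY: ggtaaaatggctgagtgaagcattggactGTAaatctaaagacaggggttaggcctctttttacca
MT-TN: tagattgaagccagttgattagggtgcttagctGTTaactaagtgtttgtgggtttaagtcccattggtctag
MT-TC: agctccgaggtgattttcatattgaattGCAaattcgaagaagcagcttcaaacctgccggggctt
MT-TP: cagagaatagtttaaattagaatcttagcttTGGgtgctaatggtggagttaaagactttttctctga
MT-TG: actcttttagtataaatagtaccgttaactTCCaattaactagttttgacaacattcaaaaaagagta
MT-ATP8: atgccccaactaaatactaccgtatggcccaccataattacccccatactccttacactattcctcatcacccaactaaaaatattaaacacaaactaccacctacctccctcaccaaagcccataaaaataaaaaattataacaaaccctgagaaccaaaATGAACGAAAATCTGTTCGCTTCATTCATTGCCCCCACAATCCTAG

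The libraries held 14447847 to 16224271 reads assigned to features. PTPN11, the gene of SHP2, measured 6.01 to 7.15 FPKM in the shSHP2 libraries and 43.2 to 55.4 FPKM in the others. HMGCS1, a sterol synthesis gene that lovastatin is known to raise, measured 101 to 105 FPKM in the libraries titled as pretreated with lovastatin, and 24.9 to 25.8 FPKM in the shSHP2 libraries, where it was not above the 25.2 to 31.2 FPKM of the other libraries. Of 9 colon epithelial markers 6 reached 1 FPKM, while CDX1, VIL1 and CDH17 stayed at 0 to 0.275 FPKM. Among 11 markers of immune, endothelial and stromal cells 3 reached 1 FPKM (COL1A1, ACTA2 and ITGAM), and they summed to 4.32 to 10.2 FPKM. The labels do not say whether replicates were separate cultures. All p-values therefore reflect the spread among these libraries, which may be technical. In bulk RNA, fewer mitochondria per cell and less RNA per mitochondrion cannot be told apart.

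One CPT-11 library, replicate 3, was unlike the rest of its group in the mitochondrial genes. For all 13 mRNA genes, and for 25 of the 27 mitochondrial genes tested, its level was nearer to the mean of the lovastatin + CPT-11 libraries than to the mean of CPT-11 replicates 1 and 2. Its difference from its own group had the same sign as that of untreated replicate 1 for 22 of the 27 genes. The like shares over all features were not counted. Over all tested features, however, the deviations of both libraries from their group means correlated (r = 0.446), so this likeness was not limited to mitochondrial genes. RN7SL2, the nuclear gene of the RNA of the signal recognition particle, picked after its values were seen, measured 400 FPKM in CPT-11 replicate 3 against 37.2 and 17.6 FPKM in the other CPT-11 libraries. It measured 155, 98.8 and 71.1 FPKM in untreated cells, 346, 324 and 227 FPKM with lovastatin + CPT-11 and 1470, 1065 and 1230 FPKM with shSHP2 + CPT-11. The slope of expression on GC content over all tested features also set this library apart, at 0.0788 log2 units per 10 percentage points of GC against -0.144 and -0.166 in CPT-11 replicates 1 and 2. Untreated replicates 1 to 3 had slopes of -0.0116, -0.0871 and -0.134, and the libraries with lovastatin or shSHP2 had slopes of 0.0122 to 0.124. The part of either measure in the mitochondrial values was not tested, except that a linear correction for GC content and length was run as an alternative. Counts of called genes in each comparison with CPT-11 are therefore given with and without this library, and differences of single genes for some of them.

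The mitochondrial mRNAs took 6.23% ± 0.343 of assigned reads in untreated cells, 7.10% ± 0.564 with CPT-11, 6.65% ± 0.113 with lovastatin + CPT-11 and 6.57% ± 0.0710 with shSHP2 + CPT-11 (mean ± SD, n = 3 libraries each). By library the share was 5.84%, 6.36% and 6.49% in untreated cells, 7.74%, 6.90% and 6.66% with CPT-11, 6.68%, 6.52% and 6.74% with lovastatin + CPT-11, and 6.59%, 6.49% and 6.63% with shSHP2 + CPT-11. Every treated library lay above every untreated one in this share, but the highest untreated library and the lowest with shSHP2 both rounded to 6.49%. As a share of the FPKM sum the groups overlapped, at 21.7%, 23.7% and 24.3% in untreated cells and 23.3% to 23.6% with shSHP2 + CPT-11. CPT-11 replicate 3 (23.6%) and lovastatin + CPT-11 replicates 1 and 2 (23.9% and 23.7%) also lay within the untreated range. CPT-11 replicate 1 was the highest of all. The rRNA share was 0.713% ± 0.0530 in untreated cells, 0.974% ± 0.0226 with CPT-11, 0.929% ± 0.0180 with lovastatin + CPT-11 and 0.810% ± 0.0272 with shSHP2 + CPT-11, and no pair of groups overlapped. Over all libraries MT-RNR2 had 1426867 reads and MT-RNR1 173816, so this share mostly followed MT-RNR2. MT-RNR1 had another pattern, given below. The tRNA share was 0.0265% ± 0.000974, 0.0325% ± 0.00396, 0.0360% ± 0.00372 and 0.0325% ± 0.00100 in the same order. In two-sided exact permutation tests of 3 against 3 libraries the smallest possible p is 0.1. That value was reached for mRNA in each treated group against untreated cells (differences of 0.868 percentage points with CPT-11, 0.415 with lovastatin + CPT-11 and 0.337 with shSHP2 + CPT-11) and in shSHP2 + CPT-11 against CPT-11, for rRNA in all 6 comparisons, and for tRNA in each treated group against untreated cells, with a Benjamini-Hochberg adjusted p of 0.138 over 18 tests, so no share passed 0.05. The mRNA share with lovastatin + CPT-11 differed from that with CPT-11 by -0.453 percentage points (exact permutation p = 0.3, adjusted p = 0.338), and by -0.673 without CPT-11 replicate 3 and -0.135 without CPT-11 replicate 1. For shSHP2 + CPT-11 against CPT-11 the difference was -0.531 percentage points (exact permutation p = 0.1, adjusted p = 0.138), -0.751 without CPT-11 replicate 3 and -0.213 without CPT-11 replicate 1.

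**Figure D1:**
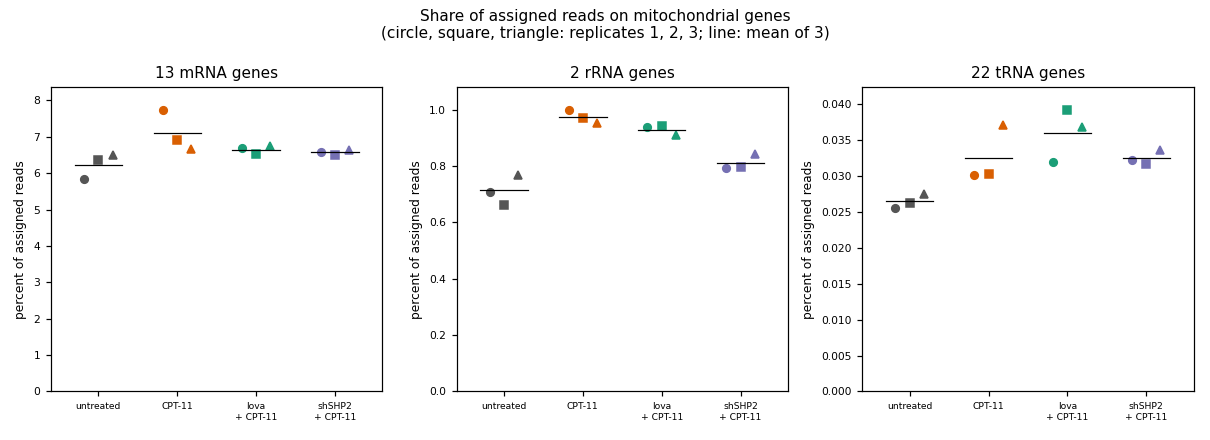
Percent of assigned reads on the 13 mRNA genes, the 2 rRNA genes and the 22 tRNA genes of the mitochondrial genome in each of the 12 libraries; points are libraries and lines are means of 3. The rRNA share was lowest in untreated cells (0.713%) and highest with CPT-11 (0.974%), and its 4 groups did not overlap. It mostly followed MT-RNR2, and MT-RNR1 alone was not highest with CPT-11.

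Of the 37 genes, 27 passed the filter on low reads and were tested: the 13 mRNA genes, both rRNA genes and 12 tRNA genes. The other 10 tRNA genes (MT-TF, MT-TV, MT-TQ, MT-TM, MT-TW, MT-TA, MT-TS1, MT-TD, MT-TK and MT-TT) had 3 to 85 reads each in all 12 libraries together. MT-TI, MT-TL2 and MT-TE passed because of the libraries in which they were high: MT-TL2 and MT-TE had the required 10 reads in 0 untreated libraries and MT-TI in 1. A gene that passes in this way has to differ between groups, so the calls of these 3 genes are descriptions and no support for any count they enter. The 27 tested genes are therefore not a sample of all 37. Genes called higher or lower passed an adjusted p of 0.05 (limma on log2(FPKM + 1), Benjamini-Hochberg adjustment over all 18047 features tested), and differences are log2 differences ± SE on that scale. The 3 comparisons with untreated cells share those libraries, and the 2 comparisons with CPT-11 share the CPT-11 libraries.

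CPT-11 against untreated cells asks what the drug alone did. Of the 27 genes 2 were called, both higher (7.41%), a smaller share than the 16.6% of all tested features that were called (8.85% higher and 7.72% lower): MT-RNR2, the large rRNA, and MT-ND6, the complex I subunit of the other strand. The median difference was 0.11 over the 13 mRNAs and 0.41 over the 12 tested tRNAs, against -0.01 over all features. These medians without CPT-11 replicate 3 were 0.15 over the mRNAs and 0.13 over the tested tRNAs. Without CPT-11 replicate 3 the calls were MT-RNR2, MT-ND6 and MT-ND5 higher and MT-TY lower, beside 24.6% of all features (11.6% higher and 13% lower). Without untreated replicate 1 or 2 there were 0 calls, and without untreated replicate 3 or CPT-11 replicate 1 or 2 there was 1. Without both untreated replicate 1 and CPT-11 replicate 3 the 1 call was MT-TY, lower, beside 21.5% of all features (10.2% higher and 11.4% lower).

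Lovastatin + CPT-11 against CPT-11 asks what the statin added. In this comparison 0 of the 27 genes were called by limma, when 0.465% of all features were (0.393% higher and 0.072% lower), although 7 had an unadjusted p under 0.05, and voom on the recovered reads called 1 (MT-ND3, higher). Without CPT-11 replicate 3, 8 genes were called higher and 2 lower, beside 30.5% of all features (16.0% higher and 14.4% lower). Those higher were MT-RNR1, MT-ND3 and the tRNA genes MT-TN, MT-TC, MT-TY, MT-TG, MT-TH and MT-TE, and those lower were MT-ATP8 and MT-TP. With all 3 CPT-11 libraries in the fit none of these differences passed. Without untreated replicate 1 as well, 9 genes were higher and 2 lower, beside 33.5% of all features (17.5% higher and 16.0% lower).

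shSHP2 + CPT-11 against CPT-11 asks what SHP2 silencing added, but the CPT-11 cells were wild-type, without a control hairpin. Loss of SHP2 and effects of the hairpin itself cannot be told apart here. In this comparison 5 genes were called higher and 3 lower (29.6%), beside 22.0% of all features (10% higher and 12% lower). The higher genes were MT-ND3 and 4 tRNA genes, MT-TI, MT-TY, MT-TH and MT-TE, and the lower genes were MT-RNR2, MT-TL1 and MT-TP. MT-TI and MT-TE enter this count as descriptions alone, given how they passed the filter. Without CPT-11 replicate 3 the counts were 8 and 4, beside 43.7% of all features (21.7% higher and 22.0% lower), and MT-RNR1 and MT-ATP8 were among the added calls. Without CPT-11 replicate 1, or without shSHP2 replicate 1 or 2, 0 genes were called, without CPT-11 replicate 2 there was 1, and without shSHP2 replicate 3 there were 2. Without both untreated replicate 1 and CPT-11 replicate 3 the counts were 8 and 4, beside 45.5% of all features (22.6% higher and 22.9% lower). shSHP2 + CPT-11 against lovastatin + CPT-11 gave 0 calls by limma beside 6.84% of all features (2.58% higher and 4.26% lower), with 1 unadjusted p under 0.05, and voom called 1 gene (MT-RNR2, lower).

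Against untreated cells, lovastatin + CPT-11 had 8 genes called higher and 0 lower (29.6%), beside 29.0% of all features (14.7% higher and 14.3% lower), and shSHP2 + CPT-11 had 9 higher and 2 lower (40.7%), beside 37.8% (18.3% higher and 19.5% lower). The shares called were thus near those of all features. In both comparisons most calls were tRNA genes, 7 of 8 and 8 of 11. These counts and shares include MT-TI and MT-TE in both comparisons and MT-TL2 with shSHP2 + CPT-11. Those genes were tested because of the treated libraries, so their calls lend the counts and shares no support. Of the mRNA genes, MT-ND3 was called higher with lovastatin + CPT-11, while MT-ND3 and MT-ND6 were called higher and MT-ATP8 lower with shSHP2 + CPT-11. Without untreated replicate 2 the counts were 3 and 5. Without untreated replicate 1 or 3 the first count was 5, without lovastatin + CPT-11 replicate 2 or 3 it was 4 or 5, and without shSHP2 replicate 1 the second count was 7. Leaving out both untreated replicate 1 and CPT-11 replicate 3 gave 8 higher and 2 lower, beside 39.0% of all features (19.5% in each direction), and 10 higher and 2 lower, beside 46.9% (23.2% higher and 23.7% lower).

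**Figure D2:**
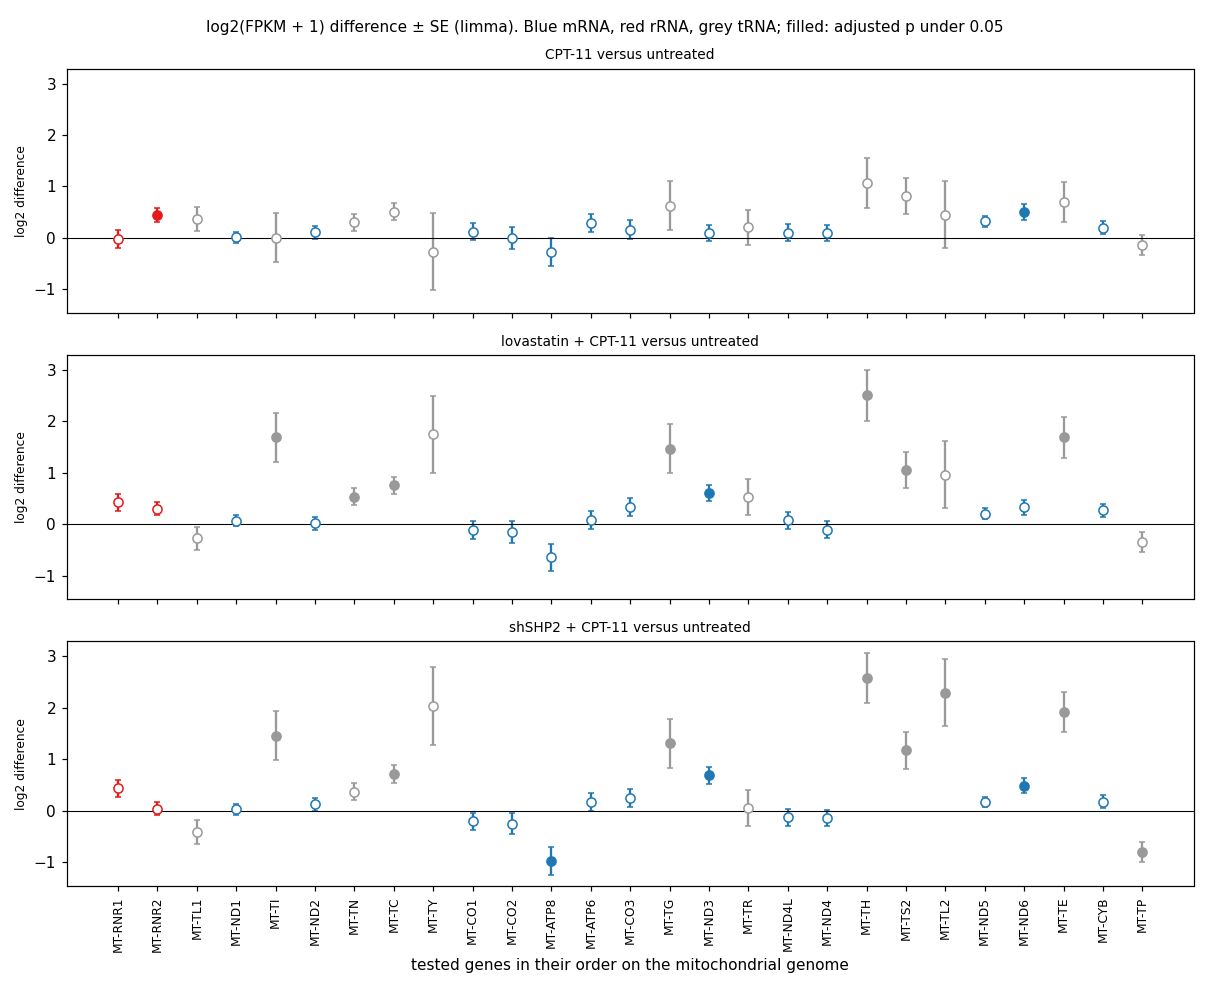
Log2 difference ± SE of each of the 27 tested mitochondrial genes between a treated group and untreated cells, in their order on the mitochondrial genome; filled points passed an adjusted p of 0.05 and colours mark mRNA, rRNA and tRNA genes. With lovastatin + CPT-11 or shSHP2 + CPT-11 most filled points are tRNA genes, with MT-TH highest at 2.51 and 2.59, and the median mRNA lies at 0.08 and 0.13. Filled points of MT-TI, MT-TL2 and MT-TE are descriptions, since these genes passed the filter because of the treated libraries.

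Of the rRNAs, MT-RNR2 was called in 2 comparisons with all libraries in the limma fit, and MT-RNR1 only in other settings. MT-RNR2, the 16S RNA of the large ribosomal subunit (MT 1671 to 3229, plus strand), measured 4099, 3922 and 4482 FPKM in untreated cells, 5768, 5808 and 5418 FPKM with CPT-11, 5366, 5152 and 4924 FPKM with lovastatin + CPT-11, and 4203, 4236 and 4408 FPKM with shSHP2 + CPT-11. All CPT-11 libraries lay above every library of the other groups, and the shSHP2 libraries lay within the untreated range. MT-RNR2 rose with CPT-11 (0.44 ± 0.13, adjusted p = 0.036, 2.51e-05 to 0.538 over the alternatives) and was lower in shSHP2 + CPT-11 than in CPT-11 (-0.40 ± 0.13, adjusted p = 0.045, 0.000158 to 0.47 over the alternatives). Each call was lost on leaving out any 1 library of the groups compared except CPT-11 replicate 3, without which the differences were 0.48 (adjusted p = 0.037) and -0.43 (adjusted p = 0.033). With the correction for GC content and length the first difference stayed at 0.44 (adjusted p = 0.042) and the second became -0.33 (adjusted p = 0.13).

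MT-RNR1, the 12S RNA of the small subunit (MT 648 to 1601, plus strand), lies upstream of MT-RNR2 on the same strand and is made in the same transcript. It measured 852, 699 and 899 FPKM in untreated cells, 876, 622 and 931 FPKM with CPT-11, 984, 1123 and 1177 FPKM with lovastatin + CPT-11, and 977, 1032 and 1314 FPKM with shSHP2 + CPT-11. The libraries with lovastatin or shSHP2 all lay above those of untreated and CPT-11 cells. The differences from untreated cells were -0.03 ± 0.17 with CPT-11 (adjusted p = 0.94), 0.43 ± 0.17 with lovastatin + CPT-11 (adjusted p = 0.081) and 0.43 ± 0.17 with shSHP2 + CPT-11 (adjusted p = 0.062), and none passed. Against CPT-11 the differences were 0.45 ± 0.17 with lovastatin + CPT-11 (adjusted p = 0.20, 0.034 to 0.58 over the alternatives) and 0.46 ± 0.17 with shSHP2 + CPT-11 (adjusted p = 0.069, 0.022 to 0.26 over the alternatives). Both passed without CPT-11 replicate 3, at 0.56 (adjusted p = 0.034) and 0.57 (adjusted p = 0.022), and voom with all libraries called the second (0.46, adjusted p = 0.024). The differences from untreated cells with lovastatin or shSHP2 had adjusted p of 0.028 to 0.25 and 0.020 to 0.21 over the alternatives, and voom was among those that called them. The ratio of MT-RNR2 to MT-RNR1 was 4.81 to 5.61 in untreated cells, 6.59, 9.33 and 5.82 with CPT-11, 4.19 to 5.46 with lovastatin + CPT-11 and 3.35 to 4.30 with shSHP2 + CPT-11. How rRNA was removed or mRNA selected is not given in the sources used here, and rRNA levels depend on that step.

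In untreated cells the mRNAs, compared per length in FPKM, ran from MT-CO2 (13567 ± 1308), MT-CO1 (9779 ± 540), MT-CO3 (8661 ± 522), MT-ATP6 (7925 ± 1047), MT-ND4 (7830 ± 631) and MT-ND4L (7007 ± 697) to MT-CYB (3229 ± 26.2), MT-ND2 (2849 ± 231), MT-ND3 (2616 ± 236), MT-ND5 (2127 ± 128), MT-ND1 (1728 ± 33.7), MT-ATP8 (1600 ± 246) and MT-ND6 (1511 ± 227; mean ± SD, n = 3). The libraries of MT-CO1, MT-CO3, MT-ATP6, MT-ND4 and MT-ND4L overlapped from each gene to the next, as did those of MT-ND2 and MT-ND3 and those of MT-ND1, MT-ATP8 and MT-ND6. The libraries did not overlap between MT-CO2 and MT-CO1, MT-ND4L and MT-CYB, MT-CYB and MT-ND2, MT-ND3 and MT-ND5, or MT-ND5 and MT-ND1. The genes of complex IV thus stood at the top of the order and most genes of complex I in its lower part.

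**Figure D3:**
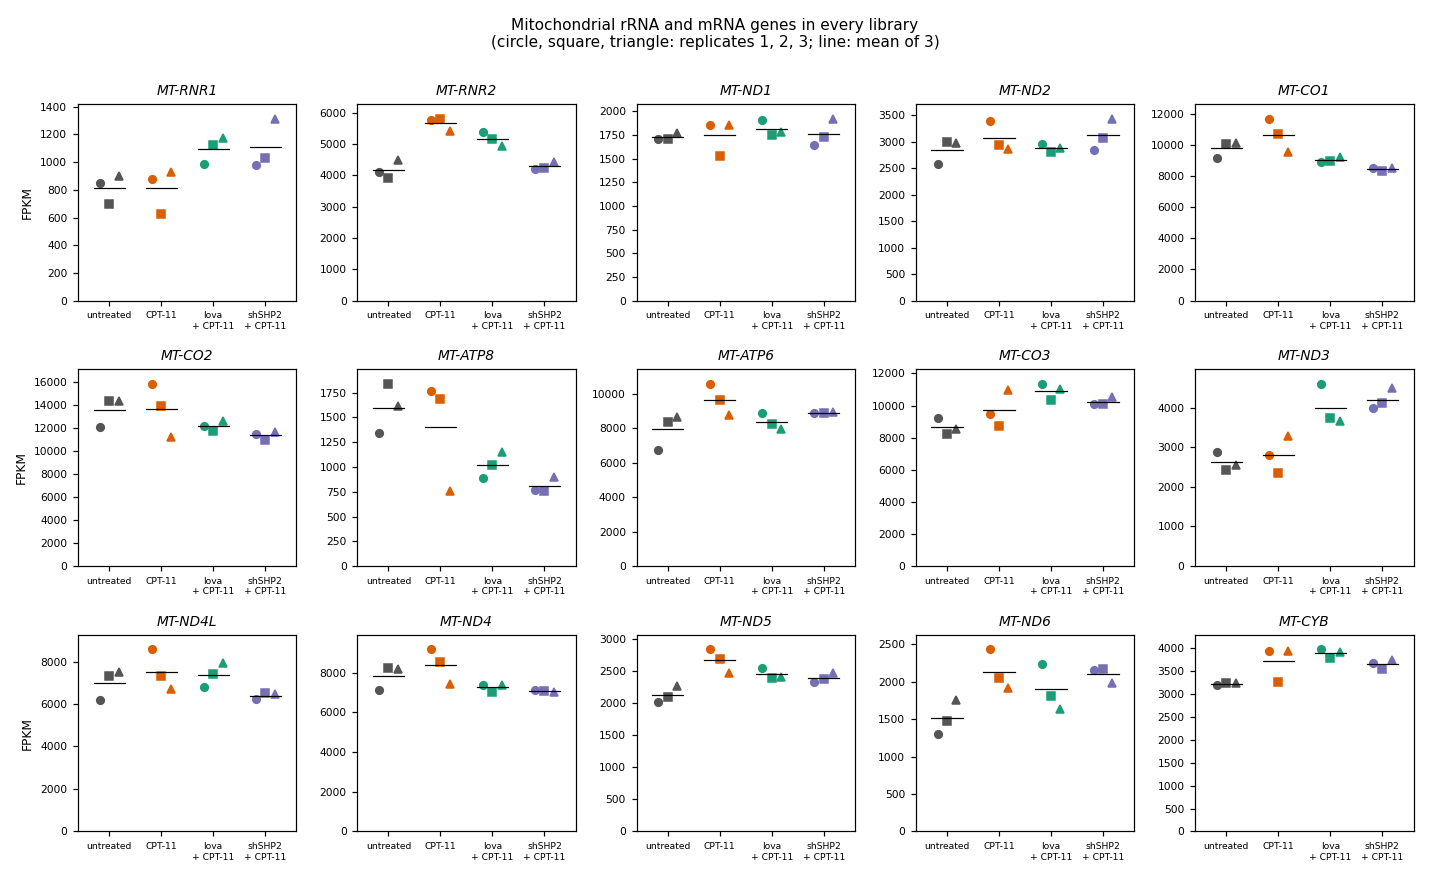
FPKM of the 2 rRNA and 13 mRNA genes in every library, in genome order; circles, squares and triangles are replicates 1, 2 and 3 and lines are means of 3, on linear axes from 0. MT-ND3 is higher and MT-ATP8 lower in all libraries with lovastatin or shSHP2 than in untreated cells, and for MT-ATP8 CPT-11 replicate 3 (761 FPKM) lies far from replicates 1 and 2 (1763 and 1684 FPKM).

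Complex I, NADH dehydrogenase, takes 7 subunits from the mitochondrial genome. MT-ND3 (MT 10059 to 10404, plus strand), a small subunit near the quinone site, had the largest called rise of an mRNA. It measured 2879, 2423 and 2546 FPKM in untreated cells, 2798, 2346 and 3292 FPKM with CPT-11, 4595, 3732 and 3658 FPKM with lovastatin + CPT-11, and 3993, 4109 and 4493 FPKM with shSHP2 + CPT-11. Every library with lovastatin or shSHP2 lay above every other library, and untreated and CPT-11 cells overlapped. MT-ND3 rose by 0.61 ± 0.16 with lovastatin + CPT-11 against untreated cells (adjusted p = 0.014, 0.00053 to 0.17 over the alternatives) and by 0.68 ± 0.16 with shSHP2 + CPT-11 (adjusted p = 0.0056, 0.00014 to 0.098 over the alternatives). The first call was lost without untreated replicate 2, and both were lost without a filter on low reads. Against CPT-11 it rose by 0.59 ± 0.16 with shSHP2 + CPT-11 (adjusted p = 0.025, 0.0020 to 0.20 over the alternatives). That call was lost without CPT-11 replicate 1 or 2 or any 1 of the shSHP2 libraries, and the difference was 0.71 (adjusted p = 0.0044) without CPT-11 replicate 3.

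MT-ND6 (MT 14149 to 14673, minus strand) is the only mRNA of its strand. Whether the counting used strand is not given in the sources used here, and MT-ND5 ends at the base before MT-ND6 begins. It measured 1302, 1478 and 1753 FPKM in untreated cells, 2434, 2049 and 1921 FPKM with CPT-11, 2241, 1814 and 1639 FPKM with lovastatin + CPT-11, and 2158, 2166 and 1984 FPKM with shSHP2 + CPT-11. The CPT-11 and shSHP2 libraries lay above the untreated ones, and the lovastatin libraries overlapped with them. MT-ND6 rose with CPT-11 (0.50 ± 0.15, adjusted p = 0.044, 0.0065 to 0.22 over the alternatives) and with shSHP2 + CPT-11 against untreated cells (0.49 ± 0.15, adjusted p = 0.026, 0.0036 to 0.15 over the alternatives). Both calls were lost without untreated replicate 1 or 2, the first also without CPT-11 replicate 1 or 2 and the second without shSHP2 replicate 1 or 2. MT-ND5, its neighbour on the plus strand and a proton-pumping subunit, measured 2662 ± 187 FPKM with CPT-11 against 2127 ± 128 FPKM in untreated cells (0.32 ± 0.10, adjusted p = 0.056), and passed without CPT-11 replicate 3 (0.38, adjusted p = 0.027). The other complex I genes, MT-ND1, MT-ND2, MT-ND4 and MT-ND4L, which encode membrane subunits, passed in none of the 6 comparisons by limma with all libraries.

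Complex IV, cytochrome c oxidase, takes its 3 core subunits from MT-CO1, MT-CO2 and MT-CO3. None of these passed in any comparison by limma with all libraries. MT-CO2 measured 12057, 14311 and 14332 FPKM in untreated cells, 15830, 13877 and 11181 FPKM with CPT-11, 12185, 11726 and 12605 FPKM with lovastatin + CPT-11 and 11475, 10965 and 11682 FPKM with shSHP2 + CPT-11. MT-CO3 measured 9227, 8199 and 8558 FPKM, 9455, 8722 and 10967 FPKM, 11345, 10353 and 11038 FPKM, and 10084, 10083 and 10505 FPKM in the same order. The ratio of MT-CO2 to MT-CO3, picked after the values were seen, was 1.31, 1.75 and 1.67 in untreated cells and 1.67, 1.59 and 1.02 with CPT-11. It was 1.07, 1.13 and 1.14 with lovastatin + CPT-11 and 1.14, 1.09 and 1.11 with shSHP2 + CPT-11. CPT-11 replicate 3 was the lowest of all 12 libraries in this ratio, and untreated replicate 1 the lowest of its group. MT-CYB, the complex III subunit cytochrome b, measured 3229 ± 26.2 FPKM in untreated cells, 3714 ± 388 FPKM with CPT-11, 3892 ± 99.2 FPKM with lovastatin + CPT-11 and 3653 ± 99.2 FPKM with shSHP2 + CPT-11. It passed in no comparison by limma with all libraries. The CPT-11 libraries all lay above the untreated ones for MT-CYB, and voom called that rise (0.20, adjusted p = 0.037).

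ATP synthase takes the membrane subunits MT-ATP6 and MT-ATP8, which are translated from one bicistronic mRNA. MT-ATP8, whose overlap with MT-ATP6 is in capitals above, measured 1348, 1839 and 1615 FPKM in untreated cells, 1763, 1684 and 761 FPKM with CPT-11, 894, 1016 and 1148 FPKM with lovastatin + CPT-11, and 769, 754 and 901 FPKM with shSHP2 + CPT-11. All libraries with lovastatin or shSHP2 lay below the untreated ones, as did CPT-11 replicate 3. MT-ATP8 fell by 0.98 ± 0.27 on the log2 scale with shSHP2 + CPT-11 against untreated cells (adjusted p = 0.015, 9.9e-05 to 0.056 over the alternatives), the largest called fall of an mRNA gene, and the call was lost without untreated replicate 2. MT-ATP6 on the same mRNA was not lower there (8888 ± 41.2 against 7925 ± 1047 FPKM), so a fall of the whole mRNA is not shown. With lovastatin + CPT-11 the difference was -0.65 ± 0.27 (adjusted p = 0.095) and did not pass. Against CPT-11 without its replicate 3, MT-ATP8 fell by 0.76 with lovastatin + CPT-11 (adjusted p = 0.0042) and by 1.10 with shSHP2 + CPT-11 (adjusted p = 0.00028). With all CPT-11 libraries the differences were -0.37 (adjusted p = 0.43) and -0.70 (adjusted p = 0.079).

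MT-ATP6 measured 7925 ± 1047 FPKM in untreated cells, 9658 ± 897 FPKM with CPT-11, 8351 ± 465 FPKM with lovastatin + CPT-11 and 8888 ± 41.2 FPKM with shSHP2 + CPT-11. It passed in no comparison by limma with all libraries, unlike MT-ATP8 with shSHP2 + CPT-11. The difference between both genes was not tested. The CPT-11 libraries all lay above the untreated ones for MT-ATP6, and voom called that rise (0.29, adjusted p = 0.022). The ratio of MT-ATP8 to MT-ATP6 was 0.200, 0.220 and 0.186 in untreated cells, 0.167, 0.175 and 0.0867 with CPT-11, 0.101, 0.123 and 0.144 with lovastatin + CPT-11 and 0.0868, 0.0850 and 0.101 with shSHP2 + CPT-11. How reads in the overlap of both genes were assigned is not given in the sources used here. A nuclear copy on chromosome 1, MTATP6P1, is 98.5% identical to MT-ATP6 over 681 bases and took 11.5% of the reads of both. Its level was 1177, 1309 and 1315 FPKM in untreated cells, 1849, 1988 and 805 FPKM with CPT-11, 1086, 775 and 885 FPKM with lovastatin + CPT-11 and 806, 844 and 830 FPKM with shSHP2 + CPT-11. CPT-11 replicate 3 again lay with the lovastatin and shSHP2 libraries. How reads that match both the copy and MT-ATP6 were assigned was not given in the sources used here. Both levels are therefore uncertain. The copy of MT-ATP8 on the same chromosome, MTATP8P1, had 7 reads in all libraries together.

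**Figure D4:**
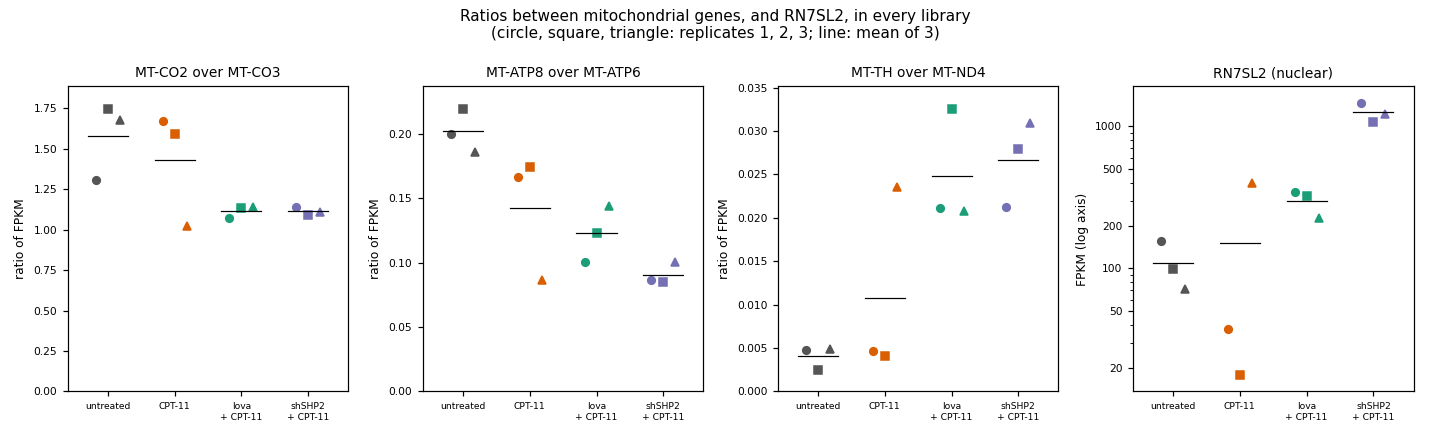
Ratios of FPKM between pairs of mitochondrial genes and, on a log axis, FPKM of the nuclear gene RN7SL2 in every library; points are replicates and lines are means of 3. CPT-11 replicate 3 lies nearer to the lovastatin libraries than to CPT-11 replicates 1 and 2 in each panel, as at 1.02 for MT-CO2 over MT-CO3, where replicates 1 and 2 were at 1.67 and 1.59.

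Most called differences from untreated cells were in tRNA genes, with the limits on tRNA values and on MT-TI, MT-TL2 and MT-TE given above. MT-TH, the histidine tRNA directly after MT-ND4, measured 34.0, 20.1 and 40.3 FPKM in untreated cells, 42.9, 35.0 and 175 FPKM with CPT-11, 156, 229 and 154 FPKM with lovastatin + CPT-11 and 152, 198 and 218 FPKM with shSHP2 + CPT-11. The last 2 groups and CPT-11 replicate 3 lay far above the other libraries. MT-TH rose by 2.51 ± 0.49 with lovastatin + CPT-11 (adjusted p = 0.0031, at most 0.016 over the alternatives) and by 2.59 ± 0.49 with shSHP2 + CPT-11 (adjusted p = 0.0019, at most 0.010 over the alternatives) against untreated cells, from 22 to 41 reads to 160 to 254 reads a library. Its ratio to MT-ND4 was 0.00245 to 0.00493 in untreated cells and in CPT-11 replicates 1 and 2, and 0.0208 to 0.0325 in the other libraries. Against CPT-11 it rose by 1.52 ± 0.49 with shSHP2 + CPT-11 (adjusted p = 0.046), a call lost on leaving out any 1 of the other libraries of those groups, and by 2.24 (adjusted p = 0.00018) without CPT-11 replicate 3.

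MT-TY, the tyrosine tRNA on the minus strand, measured 79.6, 29.6 and 32.8 FPKM in untreated cells, 22.4, 10.9 and 169 FPKM with CPT-11, 117, 179 and 149 FPKM with lovastatin + CPT-11 and 202, 193 and 144 FPKM with shSHP2 + CPT-11. It rose by 2.30 ± 0.75 with shSHP2 + CPT-11 against CPT-11 (adjusted p = 0.049), a call lost on leaving out any 1 library of these groups except CPT-11 replicate 3, without which the difference was 3.42 (adjusted p = 0.00015). Untreated replicate 1 and CPT-11 replicate 3 stood above their groups here as well. The cysteine tRNA MT-TC, which overlaps MT-TY by 1 base, rose by 0.76 ± 0.17 with lovastatin + CPT-11 (adjusted p = 0.0065, at most 0.031 over the alternatives) and by 0.72 ± 0.17 with shSHP2 + CPT-11 (adjusted p = 0.0066, at most 0.028 over the alternatives) against untreated cells. It measured 566, 534 and 538 FPKM in untreated cells, 811 to 1072 FPKM with lovastatin + CPT-11 and 879 to 920 FPKM with shSHP2 + CPT-11. CPT-11 libraries measured 576, 801 and 1010 FPKM, overlapped the lovastatin and shSHP2 ranges and all lay above the untreated libraries. The difference of CPT-11 from untreated cells was 0.51 ± 0.17 (adjusted p = 0.065) and passed in 6 of 19 alternatives. Without CPT-11 replicate 3 it was 0.31 (adjusted p = 0.13). The glutamate tRNA MT-TE had 5 or 6 reads in the untreated libraries and 18 to 31 reads in those with lovastatin or shSHP2. Its differences of 1.69 ± 0.39 and 1.92 ± 0.39 in the same comparisons are given as a description, because it passed the filter through the treated libraries.

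MT-TP, the proline tRNA next to the control region, had lower values where those genes had higher ones. It measured 1242, 1548 and 1529 FPKM in untreated cells, 1501, 1648 and 880 FPKM with CPT-11, 1190, 1079 and 1126 FPKM with lovastatin + CPT-11 and 779, 829 and 869 FPKM with shSHP2 + CPT-11. The shSHP2 libraries were the lowest of all. MT-TP fell by 0.80 ± 0.20 with shSHP2 + CPT-11 against untreated cells (adjusted p = 0.0082, at most 0.038 over the alternatives) and by 0.65 ± 0.20 against CPT-11 (adjusted p = 0.037, up to 0.15 over the alternatives), the second call being lost on leaving out any 1 library but CPT-11 replicate 3. MT-TL1, the leucine tRNA after MT-RNR2, fell by 0.78 ± 0.23 with shSHP2 + CPT-11 against CPT-11 (adjusted p = 0.036, up to 0.13 over the alternatives). Of all 29 calls of mitochondrial genes in the 6 comparisons, 7 were kept under every alternative run: MT-TC, MT-TH and MT-TE against untreated cells in both groups, and MT-TP with shSHP2 + CPT-11 against untreated cells. Those of MT-TE rest on the filter and show no stability. MT-TN, the asparagine tRNA with the most reads, rose with lovastatin + CPT-11 against untreated cells (0.54 ± 0.16, adjusted p = 0.029, up to 0.15 over the alternatives), from 1563 ± 70.2 to 2272 ± 232 FPKM. CPT-11 libraries measured 1768, 1577 and 2555 FPKM for MT-TN, replicate 3 being the highest of all libraries. The shSHP2 libraries, at 1910 to 2109 FPKM, also all lay above the untreated ones, though MT-TN was not called there. The remaining calls against untreated cells were MT-TI, MT-TG and MT-TS2 higher in both groups and MT-TL2 higher with shSHP2 + CPT-11, all on 3 to 69 reads a library, with MT-TI and MT-TL2 again tested because of the treated libraries.

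**Figure D5:**
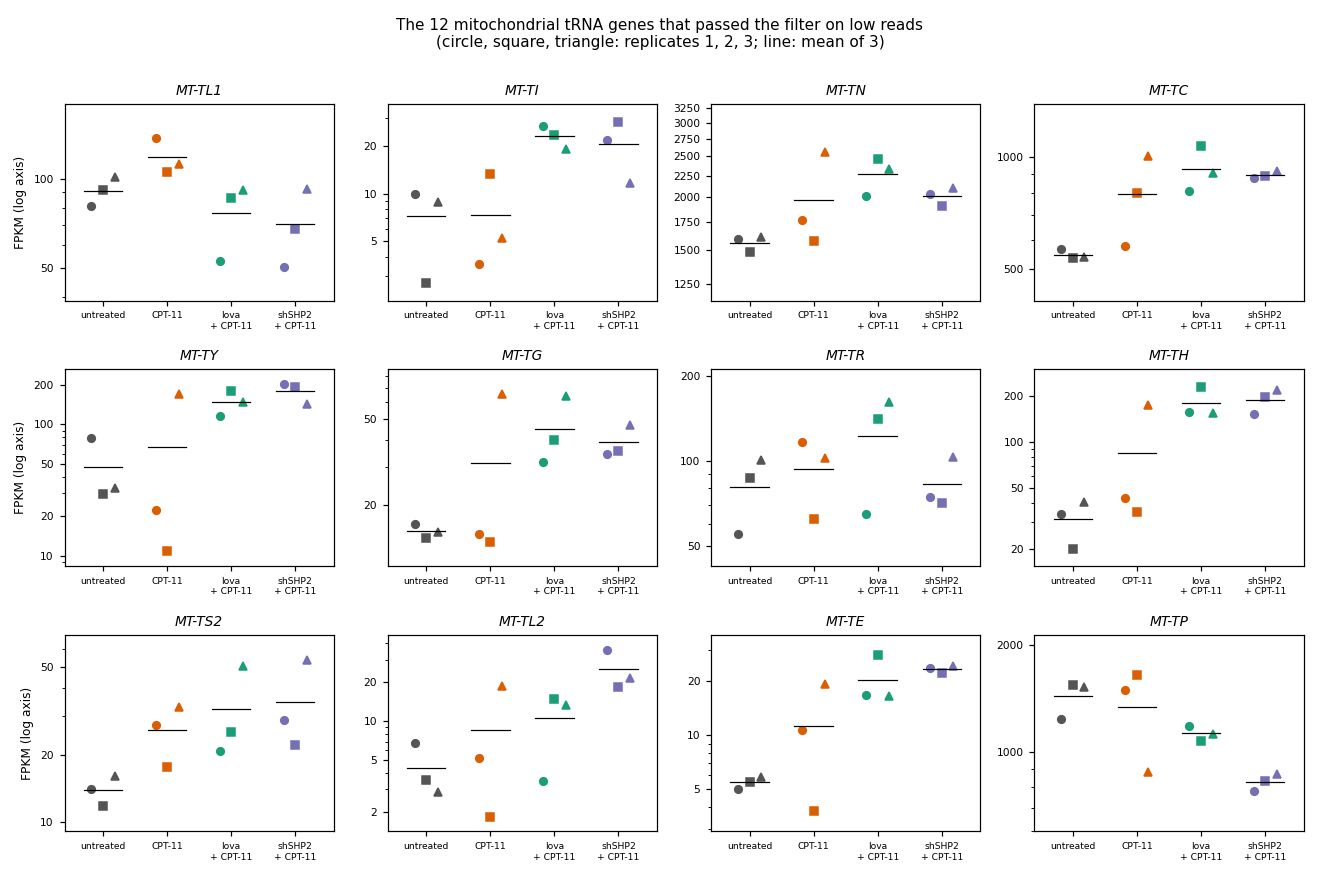
FPKM on log axes of the 12 tested mitochondrial tRNA genes in every library; circles, squares and triangles are replicates 1, 2 and 3 and lines are means of 3. For MT-TH, MT-TY and MT-TG CPT-11 replicate 3 lies far above CPT-11 replicates 1 and 2, and for MT-TP it lies at 880 FPKM, below the 1501 and 1648 FPKM of its group.

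The 13 mRNAs also differed in how tightly replicates held together. The median coefficient of variation over the mRNAs was 8.11% in untreated cells, 10.7% with CPT-11, 4.61% with lovastatin + CPT-11 and 3.03% with shSHP2 + CPT-11. Over the 267 other genes above 100 FPKM it was 5.26%, 9.52%, 5.39% and 2.83% in the same order of groups, so the CPT-11 libraries spread most and the shSHP2 libraries least in both sets. The CPT-11 values include replicate 3, the library unlike its group, and were not computed without it. Within the mRNAs, the correlation of a gene over the 12 libraries with the mean of the other 12 mRNAs ran from -0.37 for MT-ND3 to 0.79 for MT-ND5, and it was 0.78 for MT-ATP6, -0.10 for MT-CO3 and -0.11 for MT-ATP8. The libraries share depth and composition effects, so these values are descriptions of these libraries.

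The nuclear genes that copy, transcribe, process and translate the mitochondrial genome were counted in 4 lists, chosen with earlier results of these data known. They held 30 genes of mitochondrial DNA maintenance and transcription, 43 RNA processing genes, 9 tested biogenesis regulators and 20 translation factors, and counts follow in this order of lists. With CPT-11 against untreated cells, where 16.6% of all features were called, 3 genes rose and 1 fell, then 0 and 2, 0 and 4, and 1 and 1. The counts without CPT-11 replicate 3, where 24.6% of all features were called, were 3 and 4, 3 and 6, 0 and 5, and 2 and 1. With shSHP2 + CPT-11 against CPT-11, where 22.0% of all features were called, 5 genes rose and 3 fell, then 3 and 4, 2 and 2, and 2 and 1. The counts without CPT-11 replicate 3, where 43.7% of all features were called, were 7 and 7, 10 and 9, 2 and 3, and 3 and 6. The median differences of the maintenance and transcription genes with all libraries were 0.02 and -0.05 in these comparisons. No listed gene passed for lovastatin + CPT-11 against CPT-11, where 0.465% of all features did. Without CPT-11 replicate 3 this comparison gave 5 and 3, 3 and 9, 1 and 2, and 2 and 4, where 30.5% of all features were called. Against untreated cells, lovastatin + CPT-11 had 5 genes higher and 4 lower, 1 and 8, 0 and 7, and 1 and 4, where 29.0% of all features were called. shSHP2 + CPT-11 had 7 and 4, 7 and 9, 2 and 5, and 1 and 7 against untreated cells, where 37.8% of all features were called.

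POLRMT, the mitochondrial RNA polymerase, measured 37.4, 34.1 and 31.7 FPKM in untreated cells, 25.9, 23.7 and 38.6 FPKM with CPT-11, 35.3, 32.7 and 29.8 FPKM with lovastatin + CPT-11 and 37.3, 36.6 and 37.6 FPKM with shSHP2 + CPT-11, and passed in no comparison with all libraries. Without CPT-11 replicate 3, POLRMT fell by 0.46 with CPT-11 against untreated cells (adjusted p = 0.0021), and against CPT-11 it rose by 0.38 with lovastatin + CPT-11 (adjusted p = 0.0058) and by 0.57 with shSHP2 + CPT-11 (adjusted p = 0.00033). TFAM, which packages and helps transcribe mitochondrial DNA, measured 11.8 to 14.7 FPKM and TOP1MT, the mitochondrial topoisomerase I, 7.15 to 9.59 FPKM, and neither passed in any comparison with all libraries. TFAM fell by 0.23 on the log2 scale with shSHP2 + CPT-11 against CPT-11 when CPT-11 replicate 3 was left out (adjusted p = 0.017). RRM2B, a p53-induced ribonucleotide reductase subunit that supplies nucleotides for mitochondrial DNA, rose with CPT-11 from 25.8 ± 1.71 to 54.4 ± 5.93 FPKM (1.04 ± 0.08, adjusted p = 7.9e-06). NRF1, a transcription factor of nuclear genes for mitochondria, fell by 0.70 ± 0.09 on the log2 scale with CPT-11 (adjusted p = 0.00027), from 7.57 to 4.29 FPKM. MYC fell by 0.35 ± 0.05 with CPT-11 (adjusted p = 0.0013) and rose by 0.65 ± 0.05 with shSHP2 + CPT-11 against CPT-11 (adjusted p = 7.4e-05). Without CPT-11 replicate 3 the differences with CPT-11 were 1.13 for RRM2B, -0.74 for NRF1 and -0.38 for MYC. The rise of MYC with shSHP2 + CPT-11 against CPT-11 was then 0.68. Of the RNA binding proteins, GRSF1, which acts in mitochondrial RNA granules, fell by 0.24 ± 0.05 with CPT-11 (adjusted p = 0.011). SLIRP, which stabilizes mitochondrial mRNAs with LRPPRC, fell by 0.69 ± 0.14 with lovastatin + CPT-11 against untreated cells (adjusted p = 0.0042). SLIRP measured 36.6, 39.0 and 32.8 FPKM in untreated cells and 32.1, 34.7 and 22.6 FPKM with CPT-11. With lovastatin + CPT-11 it measured 25.1, 19.9 and 21.3 FPKM, and with shSHP2 + CPT-11 20.7, 23.3 and 24.0 FPKM. Low SLIRP values were thus not particular to lovastatin, and CPT-11 replicate 3 shared them. COX14, an assembly factor that binds newly made MT-CO1 protein, rose by 0.98 ± 0.14 with shSHP2 + CPT-11 against untreated cells (adjusted p = 0.00028), while MT-CO1 itself measured 8465 ± 107 FPKM there against 9779 ± 540 FPKM and did not pass. COX14 also rose by 0.62 ± 0.14 with lovastatin + CPT-11 against untreated cells (adjusted p = 0.0058). Against CPT-11 it rose by 0.67 ± 0.14 with shSHP2 + CPT-11 (adjusted p = 0.0099), and by 0.79 without CPT-11 replicate 3 (adjusted p = 0.00083).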

How the data were processed

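The members were the 37 features placed on chromosome MT. They and the 4 lists of nuclear genes were chosen with earlier results of these data known. Per the labels' protocols, Trizol was used for RNA and a NEBNext Ultra kit for the libraries. The authors deposited a table of FPKM values. Per the submitters' processing notes, the tools were DESeq2 1.16.1, featureCounts 1.5.0-p3, HISAT2 2.0.5 and StringTie 1.3.3b, and the build was hg19. Of the 58735 features with Ensembl identifiers, however, 58690 had the deposited coordinates of GENCODE release 29 on GRCh38. The mitochondrial genes matched that release as well, and its coordinates are printed. How strand, overlaps and reads with several matches were handled was not given in the sources used here.

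Multiplying FPKM by gene length gave whole multiples of a library's step for 100% of nonzero values within 0.01 of a read (largest gap 6.98e-05), which gave 14447847 to 16224271 reads per library. A feature was tested (18047 were) when 3 or more libraries had 10 reads or more after scaling to the median library and the total was 15 or more. log2(FPKM + 1) was fitted with limma 3.58.1 in R 4.3.3, with a variance trend, all 12 libraries and a mean per group. P-values were Benjamini-Hochberg adjusted over all tested features at 0.05. A fold on this scale understates the change of low genes. Shares of reads were compared with exact permutation tests. The rule for names allowed every mRNA and rRNA gene, tested tRNA genes, the 3 nuclear genes POLRMT, TFAM and TOP1MT, and at most 3 called genes per list and comparison with the smallest p. The fit was tested on simulated data. Alternatives were pseudocounts of 0.1 and 10, other filters and scalings, only the libraries compared, a replicate block, a correction for GC content and length (98.5% of tested features had a GC value), voom on the recovered reads, and leaving out each library.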

Additional observations from a re-analysis of the deposited data

How the results depend on the processing

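Each group had 3 libraries, and several tRNA genes were tested on few reads. Counts of called mitochondrial genes moved with several settings, and the cause was not tested. For CPT-11 against untreated cells the 2 calls became 0 without a filter on low values or with only the 2 groups in the fit, 4 with scaling to all assigned reads, to reads off the mitochondrial genome or with the GC and length correction, 6 with voom, 1 with the replicate block, and 0 to 4 leaving out 1 library. For lovastatin + CPT-11 against CPT-11 the 0 calls became 1 with voom and 0 to 10 leaving out 1 library. For shSHP2 + CPT-11 against CPT-11 the 8 calls became 0 without a filter or with only the 2 groups in the fit, 2 with the replicate block, alone or with the GC and length correction, 4 with that correction, 13 with voom and 0 to 12 leaving out 1 library. For shSHP2 + CPT-11 against lovastatin + CPT-11 the 0 calls became 1 with a pseudocount of 10, an FPKM of at least 1, only the 2 groups in the fit (MT-TP, the others being MT-RNR2) or voom, and stayed at 0 leaving out any 1 library. Against untreated cells, the 8 calls with lovastatin + CPT-11 became 3 without a filter, 15 with voom and 3 to 8 leaving out 1 library, and the 11 with shSHP2 + CPT-11 became 4, 19 and 5 to 10. Settings added after the data were seen gave 1 call (without untreated 1 and CPT-11 3) and 4 calls (without CPT-11 3, with the GC and length correction) for CPT-11 against untreated cells, and 11 and 9 for lovastatin + CPT-11 against CPT-11. As a share of the FPKM sum, the mRNA differences were 2.22 percentage points for CPT-11 against untreated cells, -1.39 and -2.03 for lovastatin + CPT-11 and shSHP2 + CPT-11 against CPT-11, and -0.641 between the latter groups. Against untreated cells they were 0.829 for lovastatin + CPT-11 and 0.188 for shSHP2 + CPT-11. Leaving out 1 library, the differences in the mRNA share of reads ran from 0.550 to 1.09 for CPT-11 against untreated cells. They ran from -0.673 to -0.135 and -0.751 to -0.213 for lovastatin + CPT-11 and shSHP2 + CPT-11 against CPT-11, and from -0.140 to -0.0310 between the latter groups. For lovastatin + CPT-11 and shSHP2 + CPT-11 against untreated cells they ran from 0.220 to 0.544 and 0.142 to 0.466. Deviations from group means showed no pairing of the libraries by replicate number: of 18 same-numbered pairs 2 correlated above 0.1 (-0.390 to 0.176), and 2 of 12 libraries correlated best with their own number. Such correlations cannot show that the libraries were unpaired. Of 2970 alternative values of single genes, 155 lost and 134 gained a call, and 0 turned a called direction.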

Other observations

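Nuclear genes named as copies of mitochondrial genes numbered 407 among the features, most annotated as pseudogenes and the rest as protein-coding genes of the MTRNR2L family, and 12 pseudogenes passed the filter on low reads. They took 1.03% to 2.07% of the reads on mitochondrial genes and their copies in a library. MTND2P28, a copy of MT-ND2 on chromosome 1 that is 98.4% identical to it over 1042 bases, took 6.23% of the reads of both and measured 138 to 259 FPKM. MTCO1P12, 98.7% identical to MT-CO1 over 1542 bases, took 0.211% of the reads of both. MTCO2P12 had 21 reads and MTCO3P12 41 reads in all libraries together.

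The 5 protein-coding genes off the mitochondrial genome whose log2 values followed the mean of the 13 mitochondrial mRNAs most closely over the 12 libraries, out of 13719 compared, were ANKRD13A (Pearson's r = 0.883), KATNBL1 (0.872), IFNGR1 (0.870), SYNJ2BP (0.861) and PELI1 (0.861). Their levels were low, from 3.00 to 11.6 FPKM, and the libraries share depth and composition, so these values describe the 12 libraries alone.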
